A study of Homo sapiens with 10 samples.

Results

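The 7 genes described here are PAX2, PAX5, PAX8, FGF8, EN1, EN2 and GBX2, a set named for the border between midbrain and hindbrain. They were picked by gene symbol, and all 7 were found among the 42335 symbols of the deposited expression table. The table holds bulk RNA sequencing of H9 cells, an established human embryonic stem cell line, in 10 libraries. Of these, 5 came from the line whose genotype is labelled SOX1-OT V1 PAKI (V1PAKI here) and 5 from wild-type cells (Ctrl), with 1 library per line at each of d0, d4, d10, d16D and d16V. The d0 libraries are stem cells, and the later ones are labelled as neural progenitors derived from them. Per the labels' protocols, both lines went through embryoid bodies without FGF-2, neural medium from day 4 and attachment on day 7, and a ventral telencephalon arm received Shh protein and the hedgehog agonist SAG from day 10. What PAKI and the arm letters D and V stand for is not spelled out, nor is the number of clones behind the V1PAKI line.

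In the vertebrate embryo the border between midbrain and hindbrain forms where cells that make the transcription factor OTX2 meet cells that make GBX2. Cells at the border secrete FGF8 and WNT1, which pattern the tissue on either side, and they switch on PAX2, EN1, PAX5, EN2 and PAX8, an order worked out mainly in mouse and zebrafish. Most of these genes are also used elsewhere: FGF8 at the anterior rim of the forebrain, PAX2 in the optic stalk, ear and kidney, PAX8 in thyroid and kidney, PAX5 in B cells, and GBX2 in pluripotent cells of the mouse.

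FGF8, PAX2, PAX8 and GBX2 were low in stem cells and higher by d10 in both lines, while PAX5, EN1 and EN2 stayed under 0.5 FPKM in all 10 libraries. FPKM, the authors' unit, scales fragments by transcript length and library total, so levels can be compared between genes. The highest values were 26.3 FPKM for FGF8 and 15.1 FPKM for PAX2, against 2.35 FPKM for PAX8 and 1.95 FPKM for GBX2. For the other 3 genes the highest values were 0.356 FPKM (PAX5), 0.192 FPKM (EN1) and 0.492 FPKM (EN2). The set therefore did not reach 0.5 FPKM as a whole, and the engrailed genes, which cells at the border switch on as they do PAX5, lay between 0 and 0.492 FPKM.

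**Figure D1:**
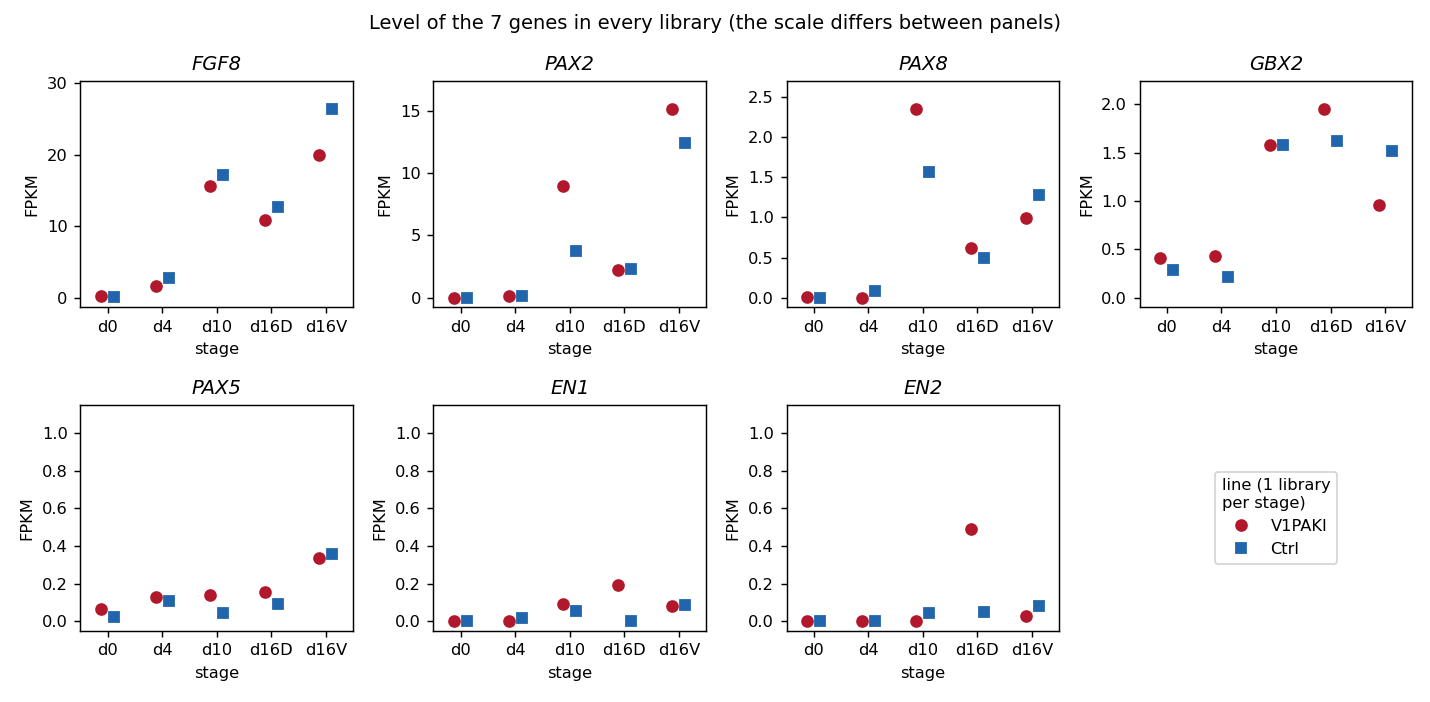
FPKM (vertical axis) of each of the 7 genes at the 5 stages (horizontal axis) in V1PAKI (red circles) and Ctrl (blue squares), 1 library per point and no error bars since there is 1 library per line and stage. FGF8, PAX2, PAX8 and GBX2 stand higher in the d10 and d16 libraries than in the d0 and d4 libraries, and PAX5, EN1 and EN2 stay under 0.5 FPKM throughout.

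Tests were run with limma on log2(FPKM + 1) over the 15779 genes that reached 1 FPKM in at least 2 libraries, with stage and line as terms and Benjamini-Hochberg adjustment across all tested genes. Of the 7 genes, 4 passed that filter, PAX2, PAX8 and GBX2 through their d10 and d16 libraries and FGF8 through those of d4 as well, so the number of them that changed between d0 and d4 or between d4 and d10 is no evidence in itself. No stage has a repeated library of the same line, and no label tells whether libraries came from separate cultures. The fit therefore takes 1 spread per gene from how much the line difference varied over the 5 stages, moderated across genes. All p-values set a change against that spread. The p-value of a stage change does not show how far the 2 lines agreed in that comparison. In bulk RNA fewer cells of a type and less RNA per cell cannot be told apart.

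FGF8, the secreted signal of the border, lies on chromosome 10 (GRCh38, 101770130 to 101780369, minus strand). It stood at 0.168, 1.66, 15.6, 10.8 and 20.0 FPKM in V1PAKI at d0, d4, d10, d16D and d16V, and at 0.0477, 2.80, 17.1, 12.7 and 26.3 FPKM in Ctrl. Both lines were highest at d16V and lowest at d0, and no stage overlapped with the next one in the order d16V, d10, d16D, d4, d0. FGF8 rose between d0 and d4 by 1.52 on the log2 scale (SE 0.22, adjusted p = 0.0371), in both lines. It was 1 of the 7 genes to pass in this comparison, in which 0.818% of all tested genes passed and 0.507% rose. It rose again between d4 and d10, by 2.44 (SE 0.22, adjusted p = 0.0125), to levels 9.34 times those of d4 in V1PAKI and 6.12 times in Ctrl. After d10 no FGF8 change passed: it was -0.45 from d10 to d16D (SE 0.22, adjusted p = 0.352) and 0.47 from d10 to d16V (SE 0.22, adjusted p = 0.281).

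The d4 rise did not pass when any of 6 libraries was left out (either line's d0, d4 or d16V), with changes of 1.29 to 1.76 and adjusted p between 0.0884 and 0.357. The d10 rise did not pass without Ctrl d4, V1PAKI d4 or V1PAKI d10, with changes of 2.26 to 2.63 and adjusted p between 0.0642 and 0.224.

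PAX2, a paired-domain transcription factor and one of the first genes of the border, lies on chromosome 10 (GRCh38, 100735603 to 100829941, plus strand), 940 kb before FGF8. PAX8, a close relative of PAX2, lies on chromosome 2 (GRCh38, 113215997 to 113278950, minus strand). Their promoters are shown because both genes rose together at d10. The windows run from 250 bases before to 50 bases after a start site and were taken from RefSeq on GRCh38.p14, where PAX2 has 2 such windows and 5 of the 7 genes have at least 1. Capitals mark matches to the motifs named after them.
PAX2 first window, chr10:100735146-100735445, plus strand: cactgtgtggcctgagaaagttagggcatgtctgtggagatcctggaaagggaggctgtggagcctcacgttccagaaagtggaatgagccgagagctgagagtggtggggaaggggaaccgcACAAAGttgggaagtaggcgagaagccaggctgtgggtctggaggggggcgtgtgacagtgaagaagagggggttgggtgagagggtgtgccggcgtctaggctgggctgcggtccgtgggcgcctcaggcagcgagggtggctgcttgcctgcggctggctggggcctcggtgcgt
PAX2 second window, chr10:100745332-100745631, plus strand: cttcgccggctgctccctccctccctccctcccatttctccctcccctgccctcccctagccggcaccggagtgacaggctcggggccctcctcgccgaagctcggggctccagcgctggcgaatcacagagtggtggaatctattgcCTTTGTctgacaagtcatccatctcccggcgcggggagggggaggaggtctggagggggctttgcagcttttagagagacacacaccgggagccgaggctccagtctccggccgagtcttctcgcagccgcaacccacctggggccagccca
PAX8, chr2:113278872-113279171, minus strand: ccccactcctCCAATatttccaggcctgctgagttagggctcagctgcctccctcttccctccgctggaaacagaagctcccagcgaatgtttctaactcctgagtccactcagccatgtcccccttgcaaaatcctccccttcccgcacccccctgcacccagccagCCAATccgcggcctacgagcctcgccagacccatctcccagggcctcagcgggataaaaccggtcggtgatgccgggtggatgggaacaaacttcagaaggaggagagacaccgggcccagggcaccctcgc
Each PAX2 window held 1 match to ACAAAG, a core bound by SOX factors, 127 bases before the start site in the first window and, on the other strand, 102 bases before it in the second. This core occurs in 16.1% of the 35116 promoter windows of the same length. PAX8 held none, but had 2 matches to the CCAAT box (searched as CCAAT), which 34.6% of all windows hold. Both strands were also searched for TAATTA (a homeodomain core, in 4.84% of all windows), for TAATCC (an OTX core, in 6.36%), for GACCACCCA (a GLI consensus, in 0.236%), for ATCAAAG (a TCF/LEF core, in 2.62%) and for TATAAA (the TATA box, in 11.5%). None of these letters occurred in the 3 windows, and no motif contains another. GC content was 63.7% and 66.7% in the PAX2 windows and 62.0% in that of PAX8, against a median of 58.7% over all windows.

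PAX2 stood at 0.00779, 0.118, 8.97, 2.20 and 15.1 FPKM in V1PAKI at d0, d4, d10, d16D and d16V, and at 0, 0.148, 3.74, 2.33 and 12.4 FPKM in Ctrl. The d10 and d16V libraries of both lines were high, the d16D libraries lay between 2 and 3 FPKM, and the stages did not overlap with their neighbours in the order d16V, d10, d16D, d4, d0. Between d4 and d10 PAX2 rose by 2.60 on the log2 scale (SE 0.30, adjusted p = 0.0166). That rise did not pass without Ctrl d4, V1PAKI d4 or V1PAKI d10, where the change was 2.09 to 2.78 and the adjusted p between 0.0642 and 0.272. From d10 to d16D the change was -1.07 (SE 0.30, adjusted p = 0.145), with the d10 level 4.08 times the d16D level in V1PAKI and 1.61 times in Ctrl. From d10 to d16V it was 1.10 (SE 0.30, adjusted p = 0.129), or 1.69 times the d10 level in V1PAKI and 3.33 times in Ctrl.

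PAX8 stood at 0.0133, 0, 2.35, 0.621 and 0.993 FPKM in V1PAKI at d0, d4, d10, d16D and d16V, and at 0, 0.0845, 1.57, 0.492 and 1.28 FPKM in Ctrl. It was highest at d10 in both lines, where PAX2 and FGF8 were highest at d16V, and only its d0 and d4 libraries overlapped among neighbours in its order. PAX8 rose between d4 and d10 by 1.49 (SE 0.21, adjusted p = 0.0287). The call did not hold in 8 of 10 fits with a library left out (either line's d0, d4, d10 or d16V), where the change was 1.28 to 1.71 and the adjusted p between 0.0510 and 0.348. From d10 the change was -0.92 to d16D (SE 0.21, adjusted p = 0.102) and -0.46 to d16V (SE 0.21, adjusted p = 0.277), neither passing. PAX8-AS1 overlaps PAX8 on the opposite strand, and the handling of strand is not given in the sources used here. Reads of the pair cannot be told apart with certainty. PAX8-AS1 was highest at d10 too, at 0.263 FPKM in V1PAKI and 0.133 FPKM in Ctrl.

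PAX5, the third paired-domain gene of this subgroup and a master regulator of B cells, lies on chromosome 9 (GRCh38, 36833275 to 37034185, minus strand). It stood at 0.0633, 0.127, 0.139, 0.158 and 0.336 FPKM in V1PAKI at d0, d4, d10, d16D and d16V, and at 0.0226, 0.106, 0.0455, 0.0944 and 0.356 FPKM in Ctrl. The d16V libraries of both lines were its highest and did not overlap with the other stages, while d16D, d4, d10 and d0 overlapped with their neighbours. No library reached 1 FPKM, so PAX5 did not enter the test.

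EN1 and EN2 encode the engrailed homeodomain proteins, which cells at the border make. EN1, on chromosome 2 (GRCh38, 118842171 to 118847678, minus strand), was listed at 0 in 4 libraries and was highest in V1PAKI d16D at 0.192 FPKM, where Ctrl d16D was listed at 0. Its other values were 0.0898 and 0.0536 FPKM at d10 and 0.0789 and 0.0892 FPKM at d16V in V1PAKI and Ctrl, and 0.0174 FPKM in Ctrl at d4. EN2, on chromosome 7 (GRCh38, 155458129 to 155464831, plus strand), was listed at 0 in 5 libraries. It stood at 0.492 FPKM in V1PAKI d16D against 0.0522 FPKM in Ctrl d16D, at 0.0263 against 0.0819 FPKM at d16V, and at 0 against 0.0453 FPKM at d10. V1PAKI d16D was thus the highest library for both engrailed genes, and neither gene passed the filter on low values. In a fit without that filter, with all 7 genes, no member passed in any comparison with limma, where 0 to 64 of all 42335 genes passed. Depending on the comparison, 0 to 4 of 7 had an unadjusted p below 0.05. The count of 4 was for d10 minus d4, where 1838 of all genes were higher and 1897 lower at that threshold. CNPY1, the gene after EN2, which in zebrafish supports FGF receptor function at the border, was highest in the same library, at 0.0497 FPKM.

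GBX2, the homeodomain factor of the hindbrain side of the border, lies on chromosome 2 (GRCh38, 236165236 to 236168369, minus strand). It stood at 0.412, 0.436, 1.58, 1.95 and 0.957 FPKM in V1PAKI at d0, d4, d10, d16D and d16V, and at 0.290, 0.216, 1.58, 1.63 and 1.52 FPKM in Ctrl. The 6 libraries from d10 on lay between 0.957 and 1.95 FPKM, above the 4 libraries of d0 and d4, which lay between 0.216 and 0.436 FPKM. GBX2 was the only one of the 4 tested genes above 0.2 FPKM in all d0 libraries. The change from d4 to d10 was 0.97 on the log2 scale (SE 0.22) with an adjusted p of 0.0803, so it did not pass. With stage alone in the fit the same change had an adjusted p of 0.0459. AC019068.1, an antisense gene that overlaps GBX2, lay between 0 and 0.651 FPKM and was highest in V1PAKI d4, so reads of the pair may not be fully separated.

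Between d4 and d10, 3 of the 7 genes (FGF8, PAX2 and PAX8) rose and none fell, where 1.44% of all tested genes passed and 0.919% rose. Over all genes 145 rose and 82 fell, against 223 and 33 on the TPM scale, on which the same 3 members passed and the median gene shifted by 0.12. The median change of the 4 tested genes was 1.97 on the log2 scale, beside -0.01 over all genes. It leaves out PAX5, EN1 and EN2. Since PAX2, PAX8 and GBX2 passed the filter through their d10 and d16 libraries, this median is no evidence in itself either. From d10 to d16D no tested member passed in limma, against 0.932% of all genes, although 2 of the 4 (PAX2 and PAX8) had an unadjusted p below 0.05, as did 17.0% of all genes. From d10 to d16V none passed either, against 0.811% of all genes, with 1 of the 4 (PAX2) below 0.05 unadjusted, as were 19.9% of all genes. The median change was -0.68 to d16D and 0.12 to d16V, beside 0.03 and 0.04 over all genes. Both changes share the d10 libraries, so they are not independent of each other.

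**Figure D2:**
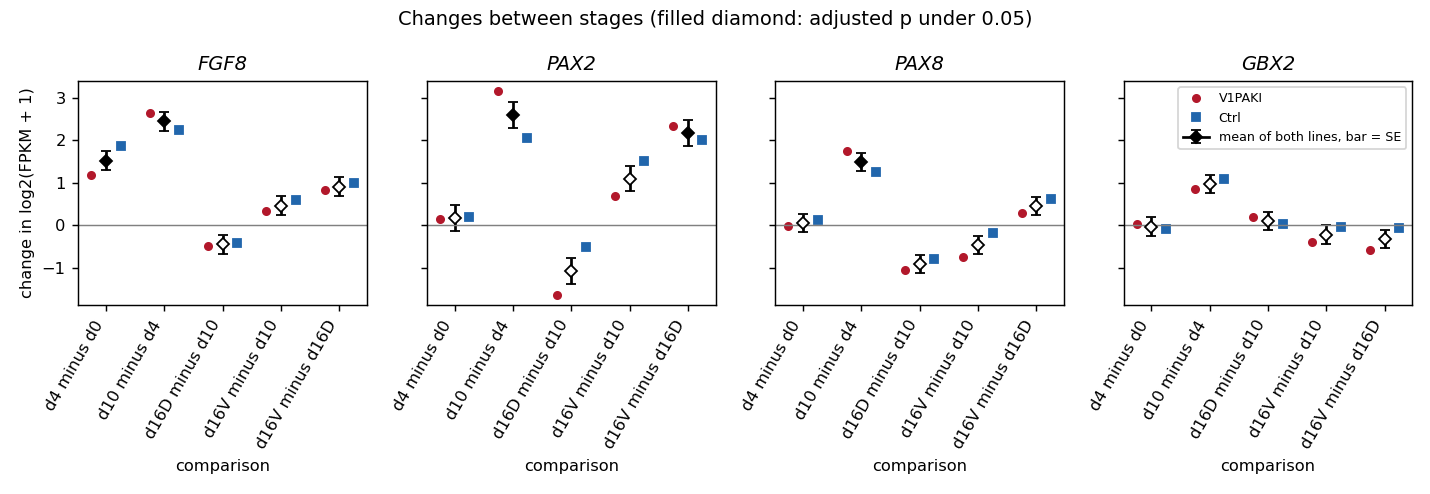
Change in log2(FPKM + 1) (vertical axis) of the 4 tested genes in each comparison of stages (horizontal axis), as the first-named stage minus the second; red circles and blue squares give V1PAKI and Ctrl, diamonds the mean of both lines with its SE from limma, filled where the adjusted p was below 0.05. FGF8, PAX2 and PAX8 are filled for d10 minus d4, FGF8 for d4 minus d0 and PAX2 for d16V minus d16D.

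Of the day 16 arms, d16V was the one with high NKX2-1, a gene that the ventral forebrain expresses. NKX2-1 was at 44.8 FPKM in V1PAKI and 67.5 FPKM in Ctrl at d16V, against 0.0826 and 0.0145 FPKM at d16D. At day 16 PAX2 was the member that set both arms apart. It stood at 15.1 FPKM at d16V against 2.20 FPKM at d16D in V1PAKI, a ratio of 6.88, and at 12.4 against 2.33 FPKM in Ctrl, a ratio of 5.35. The change was 2.17 on the log2 scale, with an SE of 0.30 and an adjusted p of 0.0369. PAX2 was 1 of the 7 genes to pass, where 0.361% of all tested genes passed and 0.196% were higher. This call did not hold in 8 of 10 fits with a library left out (either line's d0, d4, d16D or d16V), where the change was 1.98 to 2.37 and the adjusted p between 0.0542 and 0.355. Nor did it hold with a pseudocount of 0.1, with no filter or on the TPM scale, where the change was 2.17 to 2.55 and the adjusted p between 0.0876 and 0.142. FGF8 was at 0.91 (SE 0.22, adjusted p = 0.279), with d16V 1.85 times d16D in V1PAKI and 2.07 times in Ctrl. PAX8 was at 0.45 (SE 0.21, adjusted p = 1) and higher at d16V in both lines. GBX2 was at -0.33 (SE 0.22, adjusted p = 1) and lower at d16V in both lines, at 0.957 against 1.95 FPKM in V1PAKI and 1.52 against 1.63 FPKM in Ctrl.

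Between the lines no member passed the test over the 5 stages. The mean difference on the log2 scale, V1PAKI minus Ctrl, was -0.22 for FGF8 (SE 0.14), 0.25 for PAX2 (SE 0.19), 0.04 for PAX8 (SE 0.13) and 0.03 for GBX2 (SE 0.14). The adjusted p was 1.00 for all 4, none was below 0.05 unadjusted, and of all tested genes 0.019% passed in limma and 2.47% were below 0.05 unadjusted. Without either d10 library the PAX2 difference was 0.0449. FGF8 was lower in V1PAKI at 4 of 5 stages, and PAX2, PAX8 and GBX2 were each higher in V1PAKI at 3 of 5. With 1 line per genotype and 1 library per stage, a missed threshold does not show that the lines were alike.

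At single stages, where there is no replicate and no test, only PAX2 at d10 differed by more than 2-fold (1 on the scale of log2(FPKM + 1)) among members with at least 1 FPKM in either library. It was at 8.97 FPKM in V1PAKI against 3.74 FPKM in Ctrl, 2.40 times as high, and was 1 of 4 members compared at d10, where 11.2% of all compared genes lay past this size and 3.78% were higher in V1PAKI. At the other stages no compared member lay past it, against 4.55% of genes at d0, 1.65% at d4, 8.96% at d16D and 2.90% at d16V, and at d0 no member reached 1 FPKM in either line. PAX8 was 1.50 times as high in V1PAKI at d10, at 2.35 against 1.57 FPKM. FGF8 was 0.758 times as high in V1PAKI at d16V, at 20.0 against 26.3 FPKM, and 0.594 times as high at d4, at 1.66 against 2.80 FPKM.

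**Figure D3:**
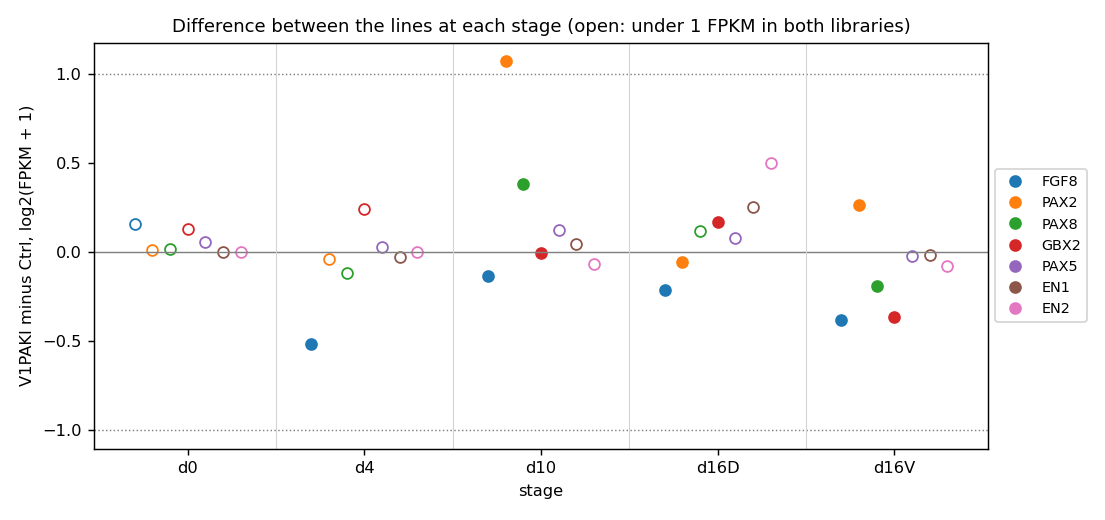
V1PAKI minus Ctrl in log2(FPKM + 1) (vertical axis) for each of the 7 genes at each stage (horizontal axis), 1 library per line, with open circles where both libraries were under 1 FPKM and dotted lines at a 2-fold difference. Only PAX2 at d10 lies past a dotted line, and the 3 genes under 0.5 FPKM throughout have open circles at every stage.

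Summed levels of markers from outside the nervous system also stood apart between the libraries of the lines, with 1 library each and no gene of these lists passing between lines in limma. The summed level of 9 mesenchyme markers, collagens among them, was 166 FPKM in V1PAKI against 743 FPKM in Ctrl at d10, where 0 of 9 were higher in V1PAKI. It was 1126 against 181 FPKM at d16D, where 9 of 9 were higher in V1PAKI, and 8.68 against 295 FPKM at d16V, where 0 of 9 were. No marker of this list was at 0 at these stages. The 8 endoderm and liver markers summed to 36.5 against 224 FPKM at d10, to 2378 against 416 FPKM at d16D and to 20.9 against 249 FPKM at d16V, with 0, 8 and 1 of 8 higher in V1PAKI and 1 at 0 in V1PAKI at d16V. The 9 neural progenitor markers summed to 322 against 240 FPKM at d10, to 404 against 710 FPKM at d16D and to 777 against 688 FPKM at d16V. The 8 pluripotency markers summed to 631 against 669 FPKM at d10, with 3 of 8 higher in V1PAKI. SOX2 is on both the neural progenitor and the pluripotency list. PAX2 and PAX8 were higher in V1PAKI at d10, where the mesenchyme and endoderm sums were lower, and EN1 and EN2 were highest in the library with the highest non-neural sums. Their part in these differences was not tested.

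The calls of listed genes in the following paragraphs share the limits of those of the members. Listed genes that were low early on passed the filter through their later libraries, so the number of them that rose is no evidence in itself. With either d0 library left out no gene at all passed for d4 minus d0, and none passed for d10 minus d4 without Ctrl d4, V1PAKI d4 or V1PAKI d10. From d10 to d16D, 11 of 13 calls on the lists were lost in at least 1 of the 10 fits with a library left out. All these calls kept their sign.

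Partner genes of the border were looked at through a list of 20 transcription factors and WNT ligands, all in the table and 17 tested. OTX2, which marks forebrain and midbrain, was at 10.7, 26.5, 43.8, 28.6 and 48.3 FPKM in V1PAKI from d0 to d16V and at 8.16, 40.0, 27.4, 56.0 and 32.9 FPKM in Ctrl. It was above GBX2 in every library. WNT1, the second secreted signal of the border, was highest at d16D, at 8.59 FPKM in V1PAKI and 3.70 FPKM in Ctrl, against 1.62 and 2.41 FPKM at d16V and at most 0.657 FPKM before. From d10 to d16D, 3 of the 17 rose and none fell: WNT1 by 2.20 (SE 0.33, adjusted p = 0.0314), BARHL1, a homeobox gene of the developing brain, by 2.01 (SE 0.32, adjusted p = 0.0404) and LMX1A, a factor of roof plate and floor plate, by 1.40 (SE 0.23, adjusted p = 0.0411). WNT1 passed in 4 of the 10 fits with a library left out (lost without either line's d0, d4 or d10), BARHL1 and LMX1A in 1 of 10 each, which for both was the fit without Ctrl d16D. These 3 genes reached 1 FPKM only in day 16 libraries, so they passed the filter through libraries in which they were high. Their number is no evidence in itself. The median change of the list from d10 to d16D was 0.95, beside 0.03 over all genes, of which 0.932% passed. WNT1 and PAX2 therefore had their day 16 maxima in different arms, although the WNT1 difference between arms (-1.17, SE 0.33, adjusted p = 0.424) did not pass. Earlier, IRX2 rose between d0 and d4 (3.24, SE 0.30, adjusted p = 0.0139; lost without either line's d0 or d4), and MEIS2 and MEIS1 rose between d4 and d10 (each passing in 2 of 10 fits with a library left out). From d10 to d16V none of the 17 passed in limma.

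Of 14 genes of the anterior hindbrain, 5 were tested and none passed in any comparison with limma. HOXB2 was at 0.866 FPKM in V1PAKI against 8.03 FPKM in Ctrl at d10 and at 10.7 against 1.80 FPKM at d16D. These were also the libraries in which the mesenchyme sums were high. At d16V HOXB2 was at 0.290 against 1.71 FPKM.

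FGF8 acts through the FGF receptors, of which FGFR1 lay between 25.9 and 57.5 FPKM and was the highest in 9 of the 10 libraries; in V1PAKI d16D FGFR3 was higher, at 39.3 against 25.9 FPKM. Of 8 related ligands and receptors, all tested, none passed in any comparison with limma. FGF17 and FGF18, the other ligands of the FGF8 subfamily, stayed below 3 FPKM. In the list of FGF feedback and target genes 11 of 12 were tested. Between d0 and d4, when FGF8 rose, DUSP6 (-4.97, SE 0.30, adjusted p = 0.00349), SPRY4 (-1.94, SE 0.30, adjusted p = 0.0386) and ETV5 (-1.67, SE 0.27, adjusted p = 0.0438) fell, and none rose. DUSP6 passed in 8 of 10 fits with a library left out (lost without either d0 library), and SPRY4 and ETV5 in 4 of 10 (lost without either line's d0, d4 or d16V). The embryoid body medium of this interval held no FGF-2, per the labels' protocols. Culture form and time changed along with the medium, and its part in these falls was not tested. Between d4 and d10 DUSP6 (2.26, SE 0.30, adjusted p = 0.0207) and ETV5 (1.51, SE 0.27, adjusted p = 0.0450) rose and none fell, passing in 6 and 3 of 10 such fits. DUSP6, a phosphatase that limits MAP kinase signalling, was at 83.9, 1.05 and 10.4 FPKM in V1PAKI at d0, d4 and d10 and at 60.1, 1.57 and 9.68 FPKM in Ctrl, so its d10 level stayed under that of stem cells. No gene of the list passed after d10.

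**Figure D4:**
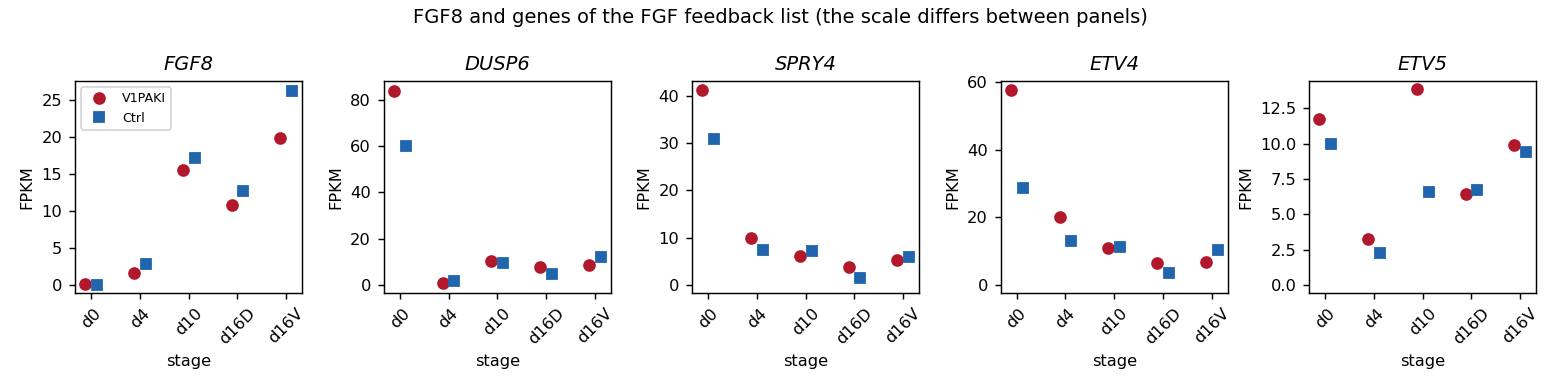
FPKM (vertical axis, a scale per panel) of FGF8 and of 4 genes of the FGF feedback list at the 5 stages (horizontal axis) in V1PAKI (red circles) and Ctrl (blue squares), 1 library per point. DUSP6, SPRY4 and ETV4 are highest at d0, where FGF8 is lowest, and DUSP6 is at 1.05 and 1.57 FPKM at d4.

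Genes of the forebrain were present in the same libraries. Of 8 optic stalk and eye field genes, 4 rose between d4 and d10 and none fell: LHX2 (4.08, SE 0.55, adjusted p = 0.0229), RAX (3.18, SE 0.30, adjusted p = 0.0127), SIX6 (3.11, SE 0.33, adjusted p = 0.0139) and PAX6 (1.43, SE 0.26, adjusted p = 0.0459). RAX and SIX6 passed in 7 of 10 fits with a library left out, LHX2 in 3 and PAX6 in 2. The list had a median change of 1.28, beside -0.01 over all genes, of which 0.919% rose. SIX6 and PAX6 reached 1 FPKM only from d10 on, so neither the count nor the median is evidence in itself. VAX1, a factor of the optic stalk, was at 1.51 FPKM in V1PAKI and 1.07 FPKM in Ctrl at d10, and at 3.92 and 10.4 FPKM at d16V against 0.721 and 4.12 FPKM at d16D. Of 9 genes of the anterior neural ridge and telencephalon, none passed between d4 and d10 in limma. Between d0 and d4, when FGF8 first rose, 3 of the 9 rose and none fell, where 0.507% of all tested genes rose. They were LHX5 (3.96, SE 0.35, adjusted p = 0.0139), SIX3 (3.34, SE 0.53, adjusted p = 0.0438) and DLX5 (2.36, SE 0.39, adjusted p = 0.0489). FEZF2 and EMX2 rose from d10 to d16D, and NKX2-1 and FEZF2 from d10 to d16V. Between d16D and d16V NKX2-1 was higher at d16V (5.74, SE 0.23, adjusted p = 8.79e-05) and EMX2 lower (-2.86, SE 0.26, adjusted p = 0.00954). NKX2-1 passed in all 10 fits with a library left out, and EMX2 in all but those without either d16V library.

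**Figure D5:**
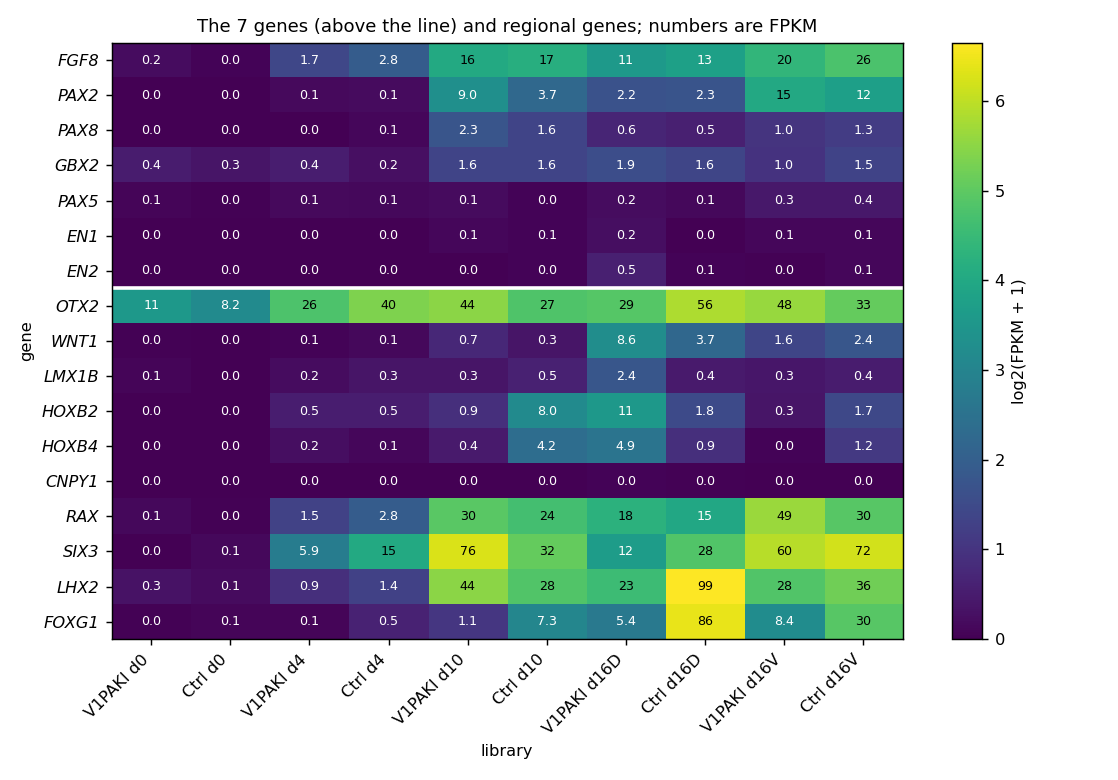
Log2(FPKM + 1) as colour and FPKM as numbers for the 7 genes (rows above the white line) and 10 regional genes (rows below it) in each of the 10 libraries (columns, V1PAKI beside Ctrl at each stage). FGF8 and RAX are both highest at d16V in each line and lowest at d0, and the EN1, EN2 and CNPY1 rows stay under 0.5 FPKM.

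Markers of other tissues that use these PAX genes were read as lists, with sums given for V1PAKI and then Ctrl. The 8 genes of the otic list, for the ear, summed to 39.0 and 38.5 FPKM at d4, to 11.2 and 27.7 FPKM at d10, to 30.1 and 15.0 FPKM at d16D and to 6.68 and 12.6 FPKM at d16V. FOXI3, a factor of the placodes, was the highest of them at d4, at 22.2 FPKM in V1PAKI and 19.7 FPKM in Ctrl, and SOX10, which neural crest expresses as well, stood at 10.0 FPKM in V1PAKI d16D against 0.557 FPKM in Ctrl d16D. OC90, an otoconia gene, reached 0.0358 FPKM. In this list 4 of 8 genes were tested and DLX5 alone passed, rising between d0 and d4 (2.36, SE 0.39, adjusted p = 0.0489). DLX5 is also on the forebrain list. The 11 genes of the kidney list summed to 41.6 and 29.2 FPKM at d10 and to 57.2 and 41.7 FPKM at d16V. SALL1, which neural cells also express, made up most of these sums, GATA3 was at 2.18 FPKM in V1PAKI d10 against 8.73 FPKM in Ctrl d10, and WT1 reached 0.110 FPKM. In the kidney list 2 of 11 genes were tested and none passed with limma. The part of such cells in the levels of PAX2 and PAX8 was not tested. For the thyroid, TG reached 0.0707 FPKM, and the only gene of 6 tested was NKX2-1, which the ventral forebrain expresses as well. For B cells, none of the 4 genes in the table passed the filter.

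Markers of stem cells stayed high in the d4 libraries, which are labelled as neural progenitors. POU5F1, the core pluripotency factor, was at 385 FPKM in V1PAKI and 326 FPKM in Ctrl at d0, and at 328 and 268 FPKM at d4. It was at 62.7 and 134 FPKM at d10, 34.2 and 5.64 FPKM at d16D and 6.85 and 17.6 FPKM at d16V. The 8 pluripotency markers summed to 1177 and 1187 FPKM at d0 and to 1302 and 1266 FPKM at d4. SOX2, which is on the neural progenitor list as well, was at 58.9 and 40.9 FPKM at d0 and at 120 and 128 FPKM at d4. These sums therefore do not follow pluripotency alone. At d4 SOX1 was at 0.0613 and 0.0605 FPKM. Of the 9 neural progenitor genes SOX21 alone passed between d0 and d4 in limma, rising to 14.9 and 19.0 FPKM. In the list of 8 pluripotency genes DPPA4 fell between d4 and d10 and 3 genes fell between d10 and d16D. Of 9 neural progenitor genes, CDH2 and PAX6 rose between d4 and d10, and SOX1, SOX3 and HES5 between d10 and d16D.

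The genes whose pattern was most like that of a member were ranked by Pearson's r of log2(FPKM + 1) over the 10 libraries, given as a description, since the libraries share lines and stages. For FGF8 the most alike was the eye field gene RAX (r = 0.987). RAX was at 0.104, 1.49, 29.6, 18.3 and 48.9 FPKM in V1PAKI from d0 to d16V and at 0.0190, 2.79, 24.3, 14.9 and 29.6 FPKM in Ctrl, with the same order of stages as FGF8. For PAX2 they were S1PR3, a receptor of sphingosine 1-phosphate (0.977), and AC012354.10 (0.973). S1PR3 was at 11.3 FPKM in V1PAKI against 5.46 FPKM in Ctrl at d10, a difference in the same direction as that of PAX2. RAX and S1PR3 were picked by their correlation over these same libraries. Their shared stage order or direction with FGF8 and PAX2 is therefore no separate evidence. For PAX8 they were HEG1 (0.955) and the microfibril gene FBN2 (0.954), and for GBX2 LMO2 (0.982) and RHOBTB1 (0.971). Among the 4 tested members r was highest for PAX2 with FGF8 (0.9045) and lowest for PAX2 with GBX2 (0.720).

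Neighbouring genes gave the following levels. NPM3, a histone chaperone gene 956 bases from FGF8, was at 58.3 FPKM in V1PAKI and 58.1 FPKM in Ctrl at d0 and at 30.7 and 32.1 FPKM at d16V. HIF1AN, the nearest measured gene before PAX2, lay between 6.04 and 8.06 FPKM in all libraries. PSD4, 6601 bases from PAX8, stayed at or under 0.504 FPKM.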

How the data were processed

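Per the labels' protocols, sequencing libraries were prepared from total RNA (Trizol, TruSeq). The deposited table gives the authors' FPKM values for 42335 symbols in 10 libraries, and the submitters' processing notes name cutadapt 1.18, HISAT2 2.1.0, Cufflinks and genome build GRCh38. The sources used here do not name the annotation, a filter or how strand was handled. The deposited FPKM values summed to between 200509.5 and 256269.6 per library and between 10193 and 15177 genes were listed at 0. They carry no counts, so the depth of each library is unknown and no counting interval could be given. A value of 0 can be a failed estimate. No pair of libraries held identical values.

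Values were used as log2(FPKM + 1), with a pseudocount of 1, which understates the change of low genes. The 15779 genes reaching 1 FPKM in 2 or more libraries went into limma 3.58.1 under R 4.3.3 (eBayes with an intensity trend), stage and genotype as terms, 4 residual degrees of freedom and 7.77 after moderation. Tests were two-sided, adjusted by Benjamini-Hochberg over all genes, with a threshold of 0.05. The fit was also run on simulated data with the same noise for every gene, set below the residual spread of these data. Its behaviour on these data was not tested in this way. Stage differences between lines had no test, and the threshold was 1 on the log2 scale.

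The members and the 14 marker lists were chosen with earlier results of these data known. Named genes were the 7 members, the 2 most similar genes of each tested member, up to 4 called genes of a list in a comparison, and measured genes that overlap or neighbour a member. Some genes that this rule names are not reported here. OTX2, HOXB2, VAX1, FGFR1, FOXI3, SOX10, GATA3, POU5F1 and other uncalled list genes were chosen after their values were seen. Gene positions are from GENCODE 29. Alternatives were another pseudocount, no filter, other scalings, no genotype term, averaged day 16 arms and each library left out.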

Additional observations from a re-analysis of the deposited data

Results flagged for a closer look

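In 7 cases the lines moved in opposite directions between stages, with 1 library each. The difference was not tested in any of them, and all the values lie under 0.5 FPKM. The difference of the changes (V1PAKI minus Ctrl, log2 scale) was -0.58 for EN2 from d16D to d16V, where V1PAKI changed by -0.54 and Ctrl by 0.04. For EN1 it was 0.204 from d10 to d16D, -0.0625 from d10 to d16V and -0.267 from d16D to d16V. From d0 to d4 it was -0.136 for PAX8 and 0.109 for GBX2, and from d4 to d10 it was 0.0958 for PAX5.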

How the results depend on the processing

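The count of members called fell to 0 without a filter on low values for d4 minus d0 (1 as reported), d10 minus d4 (3 as reported) and d16V minus d16D (1 as reported). For d16V minus d16D it was also 0 with a pseudocount of 0.1 and on the TPM scale. With a library left out the counts ran from 0 to 1, from 0 to 3 and from 0 to 1, and stayed at 0 for the other comparisons. On the TPM scale, an alternative chosen after seeing the data for single stages, 1 member (EN2) passed a 2-fold difference at d16D against 0 as reported. FGF8, PAX2 and PAX8 kept the direction of their 5 calls in all alternatives run. Among changes that were not called, the V1PAKI minus Ctrl difference of PAX8 turned to -0.0403 with a pseudocount of 0.1. With a library left out it ran from -0.0427 to 0.101 (negative without either d10 library), and that of GBX2 from -0.0166 to 0.134 (negative without either d4 library). For d4 minus d0 the ranges were -0.00583 to 0.355 for PAX2 and -0.0505 to 0.148 for PAX8 (both negative without Ctrl d4) and -0.158 to 0.0984 for GBX2 (0.0984 without Ctrl d4 and 0.0303 without V1PAKI d0). For d16V minus d10 that of GBX2 was -0.468 to 0.0301 (positive without V1PAKI d16V). The cause was not tested. GBX2 passed for d10 minus d4 with no genotype term. The V1PAKI minus Ctrl difference of PAX2 ran from 0.0449 (without either d10 library) to 0.327.

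Counts over all genes moved by more than 1.5 times in 15 of 30 alternatives other than leaving out a library. For V1PAKI minus Ctrl (3 genes) they were 0 without a filter, 11 on the TPM scale and 0 with averaged day 16 arms. For d4 minus d0 (129) they were 11 without a filter, 75 on the TPM scale and 237 with no genotype term, and for d10 minus d4 (227) 3 without a filter and 408 with no genotype term. For d16D minus d10 (147) they were 91 with a pseudocount of 0.1, 34 without a filter and 244 with no genotype term. For d16V minus d10 (128) they were 64 without a filter and 277 with no genotype term, and for d16V minus d16D (57) 7 with a pseudocount of 0.1 and 28 on the TPM scale. With a library left out they ran from 0 to 3, 0 to 192, 0 to 447, 29 to 384, 16 to 681 and 5 to 101. Depth is unknown, so how far the values under 0.5 FPKM of PAX5, EN1 and EN2 can be resolved is unknown too.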
